A study of Homo sapiens with 12 samples.

Results

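The cytosolic heat shock chaperones were followed in RNA sequencing counts from 2 human cell lines of triple-negative breast cancer, BT-549 and SUM149, in which MUC1 was silenced. The 10 members were taken by symbol from GENCODE release 29 on GRCh38, which also gives the gene positions, out of 58037 rows in the deposited count table: the HSP70 proteins HSPA8, HSPA1A and HSPA1B, the J proteins DNAJA1 and DNAJB1, the exchange factors HSPH1 and BAG3, the HSP90 proteins HSP90AA1 and HSP90AB1, and the small heat shock protein HSPB1. All 10 had a row. Of these, 9 had enough counts to be tested, and HSPA1B was listed at 0 in all 12 libraries.

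The groups were BT-549 with MUC1shRNA, a stable short hairpin against MUC1-C, BT-549 with CshRNA, a control hairpin, SUM149 with MUC1shRNA, and SUM149 with CshRNA, each with 3 numbered libraries. MUC1-C is the transmembrane subunit of the mucin MUC1. The labels name 1 hairpin and do not say whether cells were cloned, and the descriptions of the BT-549 controls say vector where the titles say CshRNA. The libraries are bulk RNA, so fewer cells of a type and less RNA per cell cannot be told apart. The labels speak of different sets of cells and of cultures in triplicate, without saying whether the hairpin was introduced separately in each, so every p-value here covers the variation among these libraries and nothing beyond it.

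Cells keep newly made and damaged proteins soluble with a relay of chaperones. J proteins hand unfolded clients to HSP70, exchange factors reset HSP70 by releasing ADP, and co-chaperones pass some clients on to HSP90, which holds kinases and steroid receptors ready for activation. When unfolded protein builds up, the transcription factor HSF1 is freed from chaperones, forms trimers and binds heat shock elements, runs of alternating GAA and TTC units in the promoters of these same genes. HSPA8 and HSP90AB1 are the constitutive HSP70 and HSP90, and HSPA1A, HSPA1B, DNAJB1 and HSP90AA1 are classical heat-inducible forms.

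The element HSF1 reads is shown for some of the members in which these letters were found in the promoter window of RefSeq on GRCh38.p14. A window runs from 250 bases before to 50 bases after an annotated start. Searched were the 2-unit forms GAANNTTC and TTCNNGAA and the 3-unit forms GAANNTTCNNGAA and TTCNNGAANNTTC, where a 3-unit form contains 2-unit forms and each pair reads as such on both strands. The 3-unit form lay in windows of 4 of the 10 members, HSPA8, HSP90AA1, HSP90AB1 and DNAJA1, and in 0.608% of the 27305 genes with a window. The 2-unit form lay in windows of 8 members, all but HSPH1 and BAG3, and in 16.2% of genes. The members were chosen as chaperones regulated by HSF1, so a larger share among them was built into the choice. The 10 members had 15 windows, and all 27305 genes had 35116. Separate 2-unit elements found for DNAJB1, HSPB1, HSP90AA1 and DNAJA1 are not printed. The 3-unit elements are printed first, each 5′ to 3′ on the gene's strand with the units in capitals, and then the 2-unit elements of the near-identical pair HSPA1A and HSPA1B.
HSPA8, chr11:123062348-123062372, minus strand: gagcttGAAagTTCcaGAAcgctgc
HSPA8, chr11:123062173-123062197, minus strand: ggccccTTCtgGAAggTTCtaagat
HSP90AA1, chr14:102087114-102087138, minus strand: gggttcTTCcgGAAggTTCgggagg
HSP90AB1, chr6:44247772-44247796, plus strand: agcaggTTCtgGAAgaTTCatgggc
HSP90AB1, chr6:44247825-44247849, plus strand: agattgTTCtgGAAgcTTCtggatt
DNAJA1, chr9:33025270-33025294, plus strand: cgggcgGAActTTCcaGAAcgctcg
HSPA1A, chr6:31815428-31815453, plus strand: aaaaccctgGAAtaTTCccgacctgg
HSPA1B, chr6:31827624-31827649, plus strand: aaacccctgGAAtaTTCccgacctgg

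A match is a description of the letters in the window, not a site or a cause. HSPA8 and HSP90AB1 both held 2 of the 3-unit elements in their windows. Their log2 fold changes with MUC1 silencing in SUM149, described gene by gene below, were 1.88 and 0.15. Those of HSP90AA1 and DNAJA1, which also held a 3-unit element, were 0.97 and 1.59. Tested members without one ran from 0.34 for BAG3 to 2.37 for HSPA1A. A relation between elements and responses was not tested.

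Depth was 16373893 to 21248768 counts per library in BT-549 with MUC1shRNA and 16332364 to 20745835 with CshRNA, and 7931614 to 9623924 in SUM149 with MUC1shRNA and 19392422 to 24140623 with CshRNA. Levels are CPM, counts scaled to a common library total, on totals scaled by TMM, a factor that offsets differences in library composition. MUC1 itself stood at 3.74, 6.14 and 4.39 CPM in BT-549 MUC1shRNA libraries, against 53.2, 54.1 and 56.4 CPM in CshRNA libraries. It stood at 1.02, 0.323 and 0.469 CPM in SUM149 MUC1shRNA libraries, against 16.1, 16.2 and 11.8 CPM in CshRNA libraries. The target was thus low in all 6 MUC1shRNA libraries. Epithelial markers fit the label of SUM149 (EPCAM averaged 431 CPM with MUC1shRNA and 393 CPM with CshRNA). BT-549 averaged 0.0379 CPM of EPCAM with MUC1shRNA and 0.297 CPM with CshRNA, and 1602 and 1554 CPM of the mesenchymal marker VIM in those arms. Of the receptors absent by the label, ESR1 and PGR averaged under 5 CPM in every group. ERBB2, the HER2 gene, averaged 47.9 CPM with MUC1shRNA and 49.6 CPM with CshRNA in BT-549, and 35.4 CPM with MUC1shRNA and 57.3 CPM with CshRNA in SUM149, so its transcript was present.

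Some markers moved with the arms. The 4 epithelial markers, EPCAM, KRT8, KRT18 and CDH1, summed to 807 to 1057 CPM in BT-549 MUC1shRNA libraries and 325 to 377 CPM in CshRNA libraries. EPCAM was nearly absent in BT-549, so these sums came almost wholly from the other markers. In SUM149 the 4 summed to 1578 to 1652 CPM with MUC1shRNA and 1512 to 1527 CPM with CshRNA. The 4 mesenchymal markers summed to 2954 to 3289 CPM in SUM149 MUC1shRNA libraries against 794 to 901 CPM in CshRNA libraries, of which FN1 averaged 3005 CPM with MUC1shRNA and 749.7 CPM with CshRNA. In BT-549 they summed to 3438 to 4562 CPM with MUC1shRNA and 3289 to 3737 CPM with CshRNA. The 3 endothelial markers summed to 8.83 to 10.2 CPM in SUM149 MUC1shRNA libraries and 26.03 to 29.3 CPM in CshRNA libraries, where PECAM1 averaged 9.41 and 27.8 CPM, and VWF was at 0 in the MUC1shRNA arm. In BT-549 they summed to at most 0.107 CPM, with CDH5 at 0. The 4 leukocyte markers summed to at most 4.98 CPM in any library, with CD3E at 0 in all. Their part in the chaperone values was not tested.

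MUC1 silencing went with higher chaperone transcripts in SUM149 and with smaller falls of some of them in BT-549. In SUM149, all 9 tested members were higher with MUC1shRNA than with CshRNA, by log2 fold changes of 0.15 to 2.37 and a median of 0.97, where the median over all 14178 tested genes was -0.03. In BT-549, 5 members were lower and 0 were higher, with a median of -0.14, where the median over all 13200 tested genes was -0.01. The background was broad in both lines. The quasi-likelihood test of edgeR at a Benjamini-Hochberg adjusted p below 0.05 called 27.6% of all tested genes higher and 28.9% lower in SUM149, 56.5% in all, and 16.8% higher and 16.5% lower in BT-549, 33.3% in all. Together the members took 1.03% ± 0.0334 of all counts in SUM149 MUC1shRNA libraries and 0.590% ± 0.0281 in CshRNA libraries (SD, n = 3 each, exact permutation p = 0.1, two-sided). In BT-549 they took 1.02% ± 0.0250 with MUC1shRNA and 1.22% ± 0.0417 with CshRNA (SD, n = 3 each, exact permutation p = 0.1, two-sided). With 3 libraries against 3, 0.1 is the smallest p this test can give. Silenced and control libraries were fully separated for 8 of the 9 members in SUM149, where 62.6% of all tested genes were so, and for 7 of the 9 in BT-549, where 46.4% were. The BT-549 count of 5 rested in part on single libraries: it was 2 without MUC1shRNA 1, leaving HSP90AA1 and HSPB1, and 3 without MUC1shRNA 3, and the number of all genes called there was 4398, and 2716 without MUC1shRNA 1.

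**Figure D1:**
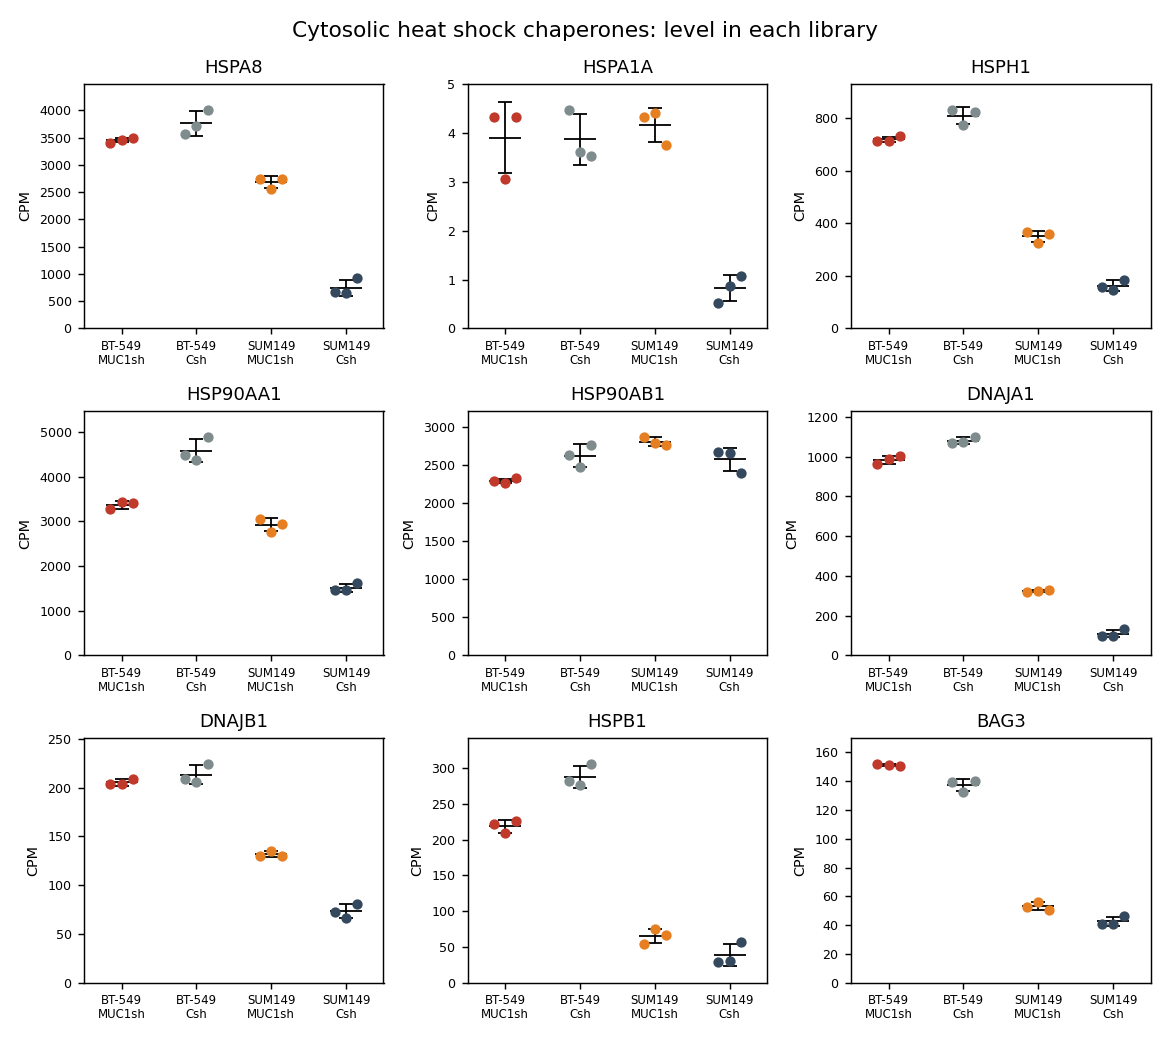
Level of the 9 tested members in each library (vertical axis, CPM, linear from 0), with the mean and SD of each group of 3 libraries. The SUM149 CshRNA group has the lowest mean in 8 of the 9 panels, and in HSP90AB1 the 4 groups lie between 2264 and 2865 CPM.

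HSPA8 (ENSG00000109971.13, chr11:123057489-123063230, minus strand) is the housekeeping HSP70 that folds nascent chains and uncoats clathrin vesicles. It had 2741, 2549 and 2745 CPM in SUM149 MUC1shRNA libraries, against 666, 644 and 914 CPM in CshRNA libraries. All 3 silenced libraries were far above all 3 controls, a log2 fold change of 1.88 (SE 0.11, adjusted p = 1.3e-08), or 3.68-fold. In BT-549 it had 3409, 3459 and 3490 CPM with MUC1shRNA, against 3562, 3720 and 4009 CPM with CshRNA. The groups did not overlap there, yet the log2 fold change of -0.13 (SE 0.05, adjusted p = 0.0841) did not pass the test. It did without CshRNA 1, at -0.17 (adjusted p = 0.0383).

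HSPA1A (ENSG00000204389.9, chr6:31815464-31817946, plus strand) encodes the strongly heat-inducible HSP70, and was sparse in these libraries. It had 38, 41 and 40 counts in SUM149 MUC1shRNA libraries, against 14, 19 and 24 counts in the deeper CshRNA libraries, which is 4.33, 4.42 and 3.76 CPM against 0.528, 0.876 and 1.07 CPM. The log2 fold change of 2.37 (SE 0.27, adjusted p = 8.3e-06) was the largest of the members. In BT-549 it had 81, 51 and 63 counts with MUC1shRNA and 78, 54 and 65 with CshRNA, and the log2 fold change was 0.0019 (SE 0.18, adjusted p = 0.995). HSPA1B (ENSG00000204388.6, chr6:31827735-31830255, plus strand) lies next to it and encodes a nearly identical protein. Of all 50-base stretches in the exons of HSPA1A, 71.3% also occurred in HSPA1B, and of those in HSPA1B, 73.5% occurred in another gene. Another gene, AL671762.1, covers 36.5% of the exon bases of HSPA1B on the same strand, and held 33.2% of the HSPA1A stretches. The counting rule for reads that fall in several of these genes is unknown. Its part in the 0 counts of HSPA1B and the low counts of HSPA1A was not tested. A level of the inducible HSP70 as a whole cannot be read from these values.

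DNAJA1 (ENSG00000086061.15, chr9:33025211-33039907, plus strand) is a farnesylated J protein that works with HSPA8 in the cytosol. It had 320.2, 322 and 332 CPM in SUM149 MUC1shRNA libraries, against 98.6, 98.6 and 132 CPM in CshRNA libraries, a log2 fold change of 1.59 (SE 0.10, adjusted p = 2.5e-08). In BT-549 it had 964, 987 and 1003 CPM with MUC1shRNA, against 1068, 1072 and 1099 CPM with CshRNA. The arms did not overlap, and the log2 fold change of -0.14 (SE 0.05, adjusted p = 0.0424) was just past the test. That call is weak: it was lost on leaving out any 1 of the 6 libraries, with adjusted p = 0.0595 to 0.2. It was lost with DESeq2 at adjusted p = 0.0745 and without a filter on low counts at adjusted p = 0.114. With all 12 libraries in one fit (adjusted p = 0.261) and with a replicate block it was lost as well.

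DNAJB1 (ENSG00000132002.7, chr19:14514770-14529770, minus strand) is the heat-inducible J protein that recruits HSP70 to aggregates. Of its exon bases, 6.21% overlap TECR on the other strand, and whether counting used strand is unknown. It had 129.7, 135 and 130.2 CPM in SUM149 MUC1shRNA libraries, against 72.9, 66.3 and 81.2 CPM in CshRNA libraries, a log2 fold change of 0.87 (SE 0.08, adjusted p = 6.6e-07). The BT-549 arms overlapped, at 204, 203 and 209 CPM with MUC1shRNA and 209, 206 and 224 CPM with CshRNA, and the log2 fold change was -0.06 (SE 0.05, adjusted p = 0.39).

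HSPH1 (ENSG00000120694.19, chr13:31134974-31162388, minus strand) is the HSP110 protein, an exchange factor that frees HSP70 of ADP and takes part in pulling apart aggregates. It had 366, 325 and 360 CPM in SUM149 MUC1shRNA libraries, against 158, 145 and 185 CPM in CshRNA libraries. The log2 fold change was 1.13 (SE 0.09, adjusted p = 1.6e-07). In BT-549 it had 713, 714 and 731 CPM with MUC1shRNA and 831, 772 and 822 CPM with CshRNA, lower in every silenced library, with a log2 fold change of -0.18 (SE 0.05, adjusted p = 0.018). That call was lost without MUC1shRNA 1, MUC1shRNA 3 or CshRNA 1, at adjusted p = 0.0989, 0.0555 and 0.0564. With all 12 libraries in one fit (adjusted p = 0.102) and with a replicate block it was lost as well.

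BAG3 (ENSG00000151929.9, chr10:119651370-119677819, plus strand) is the exchange factor that links HSP70 and small heat shock proteins to autophagy. It had 52.8, 56.0 and 50.5 CPM in SUM149 MUC1shRNA libraries, against 40.5, 41.1 and 46.2 CPM in CshRNA libraries, a log2 fold change of 0.34 (SE 0.08, adjusted p = 0.00226). In BT-549 it was the only member with a log2 fold change above 0.1: 152, 151 and 151 CPM with MUC1shRNA stood above 139, 132 and 140.4 CPM with CshRNA. The log2 fold change of 0.13 (SE 0.05, adjusted p = 0.064) did not pass the test.

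HSP90AA1 (ENSG00000080824.18, chr14:102080738-102139699, minus strand) is the inducible HSP90 and had the largest fall of the members in BT-549. It had 3278, 3443 and 3410 CPM in BT-549 MUC1shRNA libraries, against 4491, 4387 and 4892 CPM in CshRNA libraries, a log2 fold change of -0.45 (SE 0.05, adjusted p = 2.8e-04). In SUM149 the direction was the opposite, with 3065, 2766 and 2952 CPM under MUC1shRNA and 1473, 1462 and 1623 CPM under CshRNA, a log2 fold change of 0.97 (SE 0.06, adjusted p = 4.1e-08). Its call held in all 17 alternatives run in BT-549 and all 16 in SUM149.

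HSP90AB1 (ENSG00000096384.19, chr6:44246166-44253888, plus strand) is the constitutive HSP90 of the cytosol. It had 2282, 2264 and 2321 CPM in BT-549 MUC1shRNA libraries, against 2627, 2465 and 2763 CPM in CshRNA libraries, a log2 fold change of -0.20 (SE 0.05, adjusted p = 0.0128). That call was lost without MUC1shRNA 1, at adjusted p = 0.0718. In SUM149 it had 2865, 2789 and 2763 CPM with MUC1shRNA, against 2667, 2654 and 2396 CPM with CshRNA. The log2 fold change of 0.15 (SE 0.06, adjusted p = 0.0455) was lost on leaving out any 1 of the 6 libraries, with adjusted p = 0.0527 to 0.206, under upper-quartile scaling at adjusted p = 0.175, without a filter on low counts at adjusted p = 0.415, and with the 5 CPM filter at adjusted p = 0.0662.

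HSPB1 (ENSG00000106211.8, chr7:76302544-76304295, plus strand), also known as HSP27, is an ATP-independent chaperone that holds unfolding proteins and binds actin. It had 222, 209 and 226 CPM in BT-549 MUC1shRNA libraries, against 282, 276 and 305 CPM in CshRNA libraries, a log2 fold change of -0.40 (SE 0.05, adjusted p = 5.7e-04). That call was lost with all 12 libraries in one fit (adjusted p = 0.107). In SUM149 it had 54.3, 74.4 and 67.2 CPM with MUC1shRNA and 28.4, 30.6 and 56.5 CPM with CshRNA. These arms overlapped through CshRNA 3, and the log2 fold change was 0.79 (SE 0.21, adjusted p = 0.00511). Without that library it was 1.17 (SE 0.10, adjusted p = 1.8e-10).

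**Figure D2:**
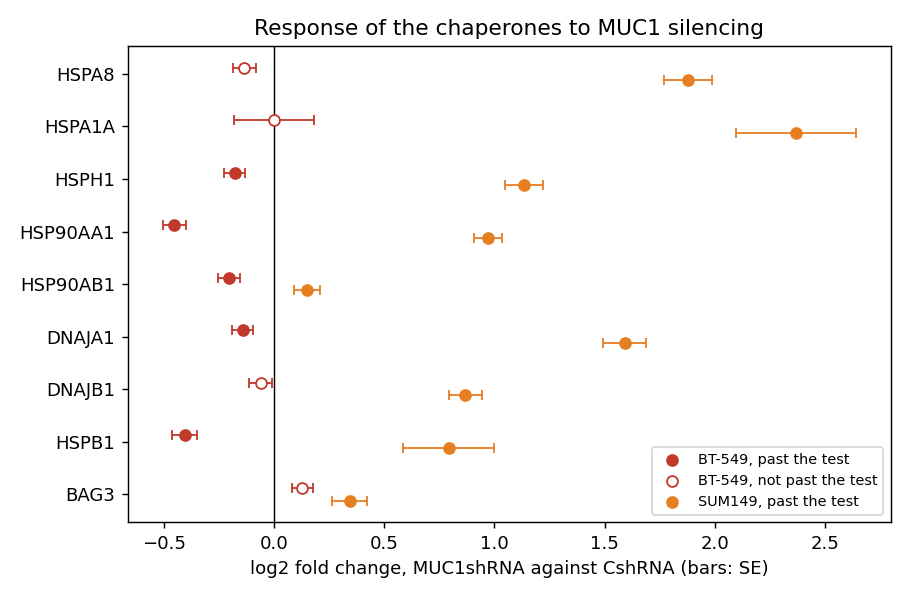
For each tested member, the horizontal axis gives the log2 fold change between MUC1shRNA and CshRNA, with its standard error, in BT-549 and SUM149. Filled points passed edgeR's test: all 9 in SUM149, to the right of 0, and 5 in BT-549, to the left of 0.

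SUM149 CshRNA 3 stood apart from the other two libraries of its group, and the chaperones were among the genes in which it differed. A chi-square test of counts over genes gave 13.5 per degree of freedom against CshRNA 1 and 10.6 against CshRNA 2, and 3.80 between those 2. It was the highest of the group for 8 of the 9 members and the lowest for HSP90AB1. How often it was the highest over all genes was not counted. Its level was 1.92 times the mean of the other two for HSPB1, 1.52 times for HSPA1A, 1.40 times for HSPA8 and 1.34 times for DNAJA1. Without it, 8 members were called higher in SUM149, all but HSP90AB1 at a log2 fold change of 0.09 (adjusted p = 0.206), and the changes of HSPA8 and DNAJA1 were 2.05 and 1.74. Over all genes, 4064 were called higher and 4242 lower without it, against 3920 and 4097 with it. In BT-549, CshRNA 3 was the highest of its group for 7 of the 9 members, again without a count over all genes. It and MUC1shRNA 2 stood apart, with a chi-square per degree of freedom of 8.33 and 8.53 to the other libraries of its arm for MUC1shRNA 2 and of 13.7 and 14.5 for CshRNA 3. Without both, the same 5 members were lower and BAG3 was higher (log2 fold change 0.13, adjusted p = 0.0316). Calls over all genes rose as well, to 2731 higher and 2594 lower from 2216 and 2182 with every BT-549 library.

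An interaction term in a fit of the 12 libraries tested whether the lines differed in their response, as BT-549 minus SUM149. Of the 9 members, 8 had a lower response in BT-549 and 0 a higher one, where the test called 20.1% of all 15649 genes lower and 19.5% higher, 39.6% in all. The difference was largest for HSPA1A at -2.35 (SE 0.34, adjusted p = 6.0e-05) and HSPA8 at -1.99 (SE 0.14, adjusted p = 8.6e-08), followed by DNAJA1 at -1.72 (SE 0.12), HSP90AA1 at -1.41 (SE 0.08), HSPH1 at -1.29 (SE 0.11), HSPB1 at -1.18 (SE 0.26) and DNAJB1 at -0.91 (SE 0.09). HSP90AB1 differed least among those called, at -0.34 (SE 0.07, adjusted p = 0.00209). The exception was BAG3 at -0.20 (SE 0.09, adjusted p = 0.0946), which was called at -0.26 without SUM149 CshRNA 3 (adjusted p = 0.0263).

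The lines started from different control levels. BT-549 CshRNA libraries were above SUM149 CshRNA libraries for 8 of the 9 members, with no overlap in any of the 8, and below for 0, where the test called 39.5% of all genes higher and 43.5% lower, 83% in all, and 83.9% of genes did not overlap. The median log2 difference of the members was 2.17, where that of all genes was -0.07. It ran from 1.47 (SE 0.07, adjusted p = 1.5e-11) for DNAJB1 through 1.53 for HSP90AA1, 1.62 for BAG3, 2.17 for HSPA1A, 2.25 for HSPH1, 2.28 for HSPA8 and 2.84 for HSPB1 to 3.23 (SE 0.09, adjusted p = 8.2e-14) for DNAJA1. HSP90AB1 alone did not pass the test, at -0.04 (SE 0.05, adjusted p = 0.467), a value that was 0.0255 without a filter on low counts. This contrast shares the SUM149 CshRNA libraries with the SUM149 response and with the interaction, so these values do not bear on each other independently. Line, growth medium and any batch that followed the line cannot be told apart in this contrast or in the interaction.

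The line ratios in the 2 arms are set side by side without a test. The mean CPM in BT-549 was 1.29 times that in SUM149 for HSPA8 in the MUC1shRNA arm and 5.07 times in the CshRNA arm. In the same order of arms, the ratio was 1.15 and 3.02 for HSP90AA1, 3.03 and 9.84 for DNAJA1, 2.05 and 4.98 for HSPH1, 1.56 and 2.90 for DNAJB1, and 3.35 and 7.47 for HSPB1. For BAG3 it was 2.85 and 3.23, for HSPA1A 0.938 and 4.70, and for HSP90AB1 0.816 and 1.02. In the MUC1shRNA arm the ratios of HSPA8, HSPA1A, HSP90AA1 and HSP90AB1 lay between 0.816 and 1.29, and those of DNAJA1 and HSPB1 stayed above 3.

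As TPM, set per length of the union of a gene's annotated exons, the order of the members changed with line and arm. That length was 4849 bases for HSPA8, 5248 for HSP90AA1, 8390 for HSPH1 and 2980 for HSP90AB1, and can exceed that of a single transcript. The order between genes depends on it. In BT-549 with CshRNA, mean CPM was 4590 for HSP90AA1, 3764 for HSPA8 and 2618 for HSP90AB1. HSP90AB1 had the highest mean in every group, at 2589 ± 36.1 TPM in BT-549 with MUC1shRNA and 3000.1 ± 117 TPM with CshRNA, and in SUM149 at 3869 ± 158 TPM with MUC1shRNA and 3524 ± 117 TPM with CshRNA (SD, n = 3 each). In BT-549 the second place was held by HSPA8 with MUC1shRNA, at 2401 ± 34.5 TPM above HSP90AA1 at 2169 ± 61.5 TPM, and by HSP90AA1 with CshRNA, at 2985 ± 63.1 TPM above HSPA8 at 2649 ± 44.6 TPM. HSP90AB1 and HSP90AA1 overlapped in the BT-549 CshRNA libraries, and HSP90AA1 was the higher of the pair in 2 of the 3. In SUM149 with MUC1shRNA, HSP90AA1 at 2294 ± 179 TPM and HSPA8 at 2271 ± 152 TPM overlapped, while with CshRNA HSP90AA1 stood at 1184 ± 105 TPM above HSPA8 at 627 ± 146 TPM. Below these, DNAJA1 came next in all groups, with 1216 TPM under MUC1shRNA and 1351 TPM under CshRNA in BT-549, and 488 and 165 TPM in those arms of SUM149. HSPB1, HSPH1, DNAJB1 and BAG3 followed between 63.5 and 601 TPM. In SUM149 with CshRNA the neighbours from DNAJA1 down to BAG3 overlapped, as HSPH1, HSPB1 and DNAJB1 did with MUC1shRNA. HSPA1A and HSPA1B were left out of this order because of their shared sequence.

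The balance between partners is given as ratios of TPM within a library. Their size depends on the same exon lengths, which are equal in both arms. HSP90AA1 to HSP90AB1, the inducible to the constitutive HSP90, was 0.592 ± 0.0255 in SUM149 with MUC1shRNA and 0.337 ± 0.0412 with CshRNA, and 0.838 ± 0.0242 in BT-549 with MUC1shRNA and 0.996 ± 0.0215 with CshRNA (SD, n = 3 each). HSPA8 to both HSP90 transcripts together was 0.368 ± 0.0106 in SUM149 with MUC1shRNA and 0.133 ± 0.0313 with CshRNA, and 0.504 ± 0.00108 in BT-549 with MUC1shRNA and 0.443 ± 0.0192 with CshRNA. This ratio was thus higher with MUC1shRNA in both lines, with no overlap. Per HSPA8 transcript in SUM149, all 4 partners had lower ratios with MUC1shRNA, without overlap. With MUC1shRNA against CshRNA, DNAJA1 was at 0.215 against 0.264, DNAJB1 at 0.0651 against 0.133, HSPH1 at 0.0755 against 0.128 and BAG3 at 0.0351 against 0.103. In BT-549 with MUC1shRNA against CshRNA, DNAJB1 was at 0.0786 against 0.0748 and BAG3 at 0.0773 against 0.0646, both without overlap, while DNAJA1 at 0.507 against 0.510 and HSPH1 at 0.120 against 0.124 overlapped (exact permutation p = 0.7 and 0.9). Every ratio without overlap had an exact two-sided permutation p of 0.1, the smallest that 3 libraries against 3 allow.

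**Figure D3:**
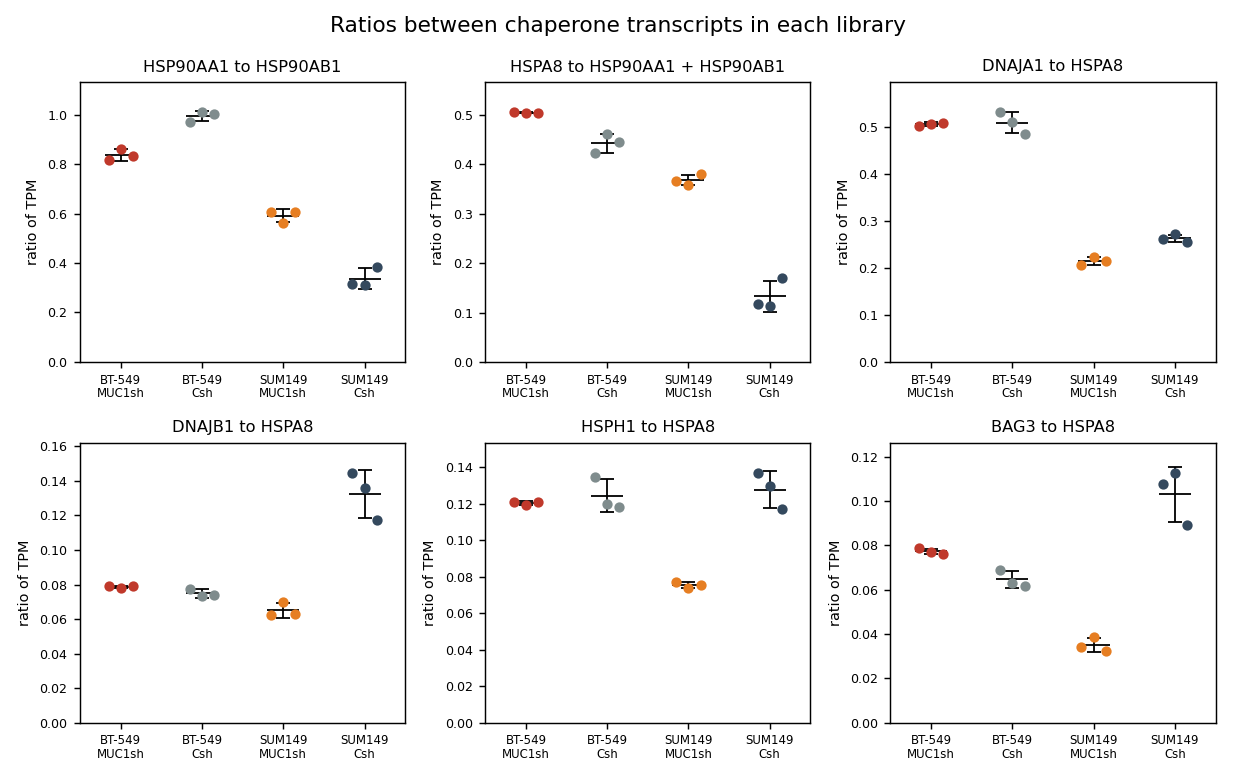
Ratio of TPM between members in each library (vertical axis, linear from 0), with the mean and SD of 3 libraries per group. HSPA8 relative to the HSP90 pair is higher with MUC1shRNA in both lines, and DNAJB1, HSPH1 and BAG3 per HSPA8 are lower with MUC1shRNA in SUM149, where the arms do not overlap.

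The transcripts of HSF1 and HSF2 did not pass the test in SUM149, where the 9 chaperones were higher. HSF1 averaged 66.9 ± 4.99 CPM in SUM149 with MUC1shRNA and 75.1 ± 2.54 CPM with CshRNA (SD, n = 3 each), and its change of -0.14 on the log2 scale did not pass edgeR's test (SE 0.07, adjusted p = 0.112). It was called lower there under upper-quartile scaling, at -0.20 (adjusted p = 0.0314), and without MUC1shRNA 2, at -0.18 (adjusted p = 0.0388). It averaged 104 ± 2.04 CPM in BT-549 with MUC1shRNA and 118 ± 8.60 CPM with CshRNA (SD, n = 3 each). Its change of -0.19 on the log2 scale passed edgeR's test (SE 0.06, adjusted p = 0.0333), a call that DESeq2 did not make (adjusted p = 0.0569), nor edgeR without a filter on low counts (adjusted p = 0.0526), and that was lost without any 1 library other than CshRNA 2 (adjusted p = 0.0639 to 0.136). The response of HSF1 did not differ between the lines past the test, with a difference of -0.03 (SE 0.09, adjusted p = 0.832). HSF2, a related factor, had log2 fold changes of 0.15 in SUM149 (SE 0.10, adjusted p = 0.215) and 0.20 in BT-549 (SE 0.08, adjusted p = 0.0936), the second of which passed the test without CshRNA 2 at 0.26 (adjusted p = 0.0401). HSF4, a factor best known from the lens, fell in SUM149 with a log2 fold change of -0.56 (adjusted p = 0.032), a call lost without MUC1shRNA 1 or 2 or CshRNA 1 or 2 (adjusted p = 0.0652 to 0.12). HSF1 is controlled mainly at the protein level, which was not measured here.

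Wider chaperone lists, read against the shares of all genes given above, are described by their counts and medians. Among the 16 co-chaperones of HSP90, 8 rose and 2 fell in SUM149 (median 0.14), and 0 rose and 5 fell in BT-549 (median -0.14). STIP1, the adaptor between HSP70 and HSP90, had 591 CPM with MUC1shRNA and 378 CPM with CshRNA in SUM149 (log2 fold change 0.67, adjusted p = 5.8e-07), whereas FKBP5, a glucocorticoid-induced immunophilin, was lower at 292 CPM with MUC1shRNA and 587 CPM with CshRNA (log2 fold change -0.98, adjusted p = 1.6e-07). In BT-549, AHSA1, which stimulates the ATPase of HSP90, and CDC37, which brings kinases to HSP90, fell by 0.31 and 0.23 on the log2 scale (adjusted p = 0.00232 and 0.00825).

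The cytosolic chaperonin TRiC and its partner prefoldin fold actin and tubulin. Of 14 tested, 11 rose and 1 fell in SUM149 (median 0.28), and 0 rose and 2 fell in BT-549 (median -0.09). TCP1, a TRiC subunit, had 822 CPM with MUC1shRNA and 510.2 CPM with CshRNA in SUM149 (log2 fold change 0.71, adjusted p = 5.5e-07). PFDN6, a prefoldin subunit, rose by 0.55 (adjusted p = 8.2e-05), with 32.2% of its exon bases under RGL2 or WDR46 on the other strand. In BT-549, CCT3 and CCT2 fell by 0.19 and 0.15 on the log2 scale (adjusted p = 0.0113 and 0.0424). The call of CCT3 was lost without MUC1shRNA 1 or 3 (adjusted p = 0.0674 and 0.0528), and that of CCT2 without any 1 library other than MUC1shRNA 2 (adjusted p = 0.0676 to 0.183).

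Other HSP70 proteins and exchange factors were mixed. Of 11 tested, 4 were higher and 3 lower in SUM149 (median 0.02), and 1 was higher and 2 lower in BT-549 (median -0.12). HSPA2, an HSP70 best known from the testis, had 7.28 CPM with MUC1shRNA and 1.64 CPM with CshRNA in SUM149 (log2 fold change 2.17, adjusted p = 4.3e-07). BAG2, which inhibits the ubiquitin ligase CHIP, rose by 0.85 (adjusted p = 1.9e-06), with 44.2% of its exon bases under RAB23 or ZNF451-AS1 on the other strand. In BT-549, the exchange factor BAG1 fell by 0.40 on the log2 scale (adjusted p = 0.00273), and the HSP110 relative HSPA4 rose by 0.14 (adjusted p = 0.0412). The call of HSPA4 was lost without any 1 library other than CshRNA 3 (adjusted p = 0.0604 to 0.148).

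Other cytosolic J proteins counted 4 higher and 1 lower of 12 tested in SUM149 (median 0.16). In BT-549, 1 was higher and 1 lower of 11 (median 0.02). DNAJB5 had 11.1 CPM with MUC1shRNA and 2.35 CPM with CshRNA in SUM149 (log2 fold change 2.27, adjusted p = 3.2e-07), and DNAJA4 rose by 0.90 (adjusted p = 3.6e-06). In BT-549, DNAJC21 rose by 0.19 and DNAJC2, a ribosome-associated J protein, fell by 0.18 on the log2 scale (adjusted p = 0.019 and 0.0248). The call of DNAJC21 was lost without MUC1shRNA 1 or 3 or CshRNA 1 or 2 (adjusted p = 0.054 to 0.0652), and that of DNAJC2 without any 1 library other than CshRNA 3 (adjusted p = 0.0504 to 0.0994). Of 7 other small heat shock proteins, only HSPB11 and CRYAB had enough counts in SUM149. HSPB11, also a subunit of intraflagellar transport, rose by 0.66 (adjusted p = 2.6e-05), and CRYAB, alpha-B-crystallin, was near the floor of detection at 0.325 CPM with MUC1shRNA and 1.19 CPM with CshRNA (log2 fold change -1.87, adjusted p = 0.0105, and 0.0678 without MUC1shRNA 3), with 20.6% of its exon bases under HSPB2 or its readthrough transcript on the other strand. In BT-549 HSPB11 was the only one tested, at -0.07 (adjusted p = 0.536).

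The chaperones of other compartments were tested in the same fit. In mitochondria, 4 rose and 3 fell of 9 in SUM149 (median 0.16) and 2 rose and 0 fell in BT-549 (median -0.08). HSPE1, the partner of the mitochondrial chaperonin HSP60, rose in SUM149 by 0.82 (adjusted p = 7.2e-06). GRPEL2, a mitochondrial exchange factor, fell in SUM149 by 0.90 (adjusted p = 6.3e-07) and rose in BT-549 by 0.47 (adjusted p = 0.0056) on the log2 scale. HSPA9, the mitochondrial HSP70, rose in BT-549 by 0.15 (adjusted p = 0.0339), a call lost without MUC1shRNA 1 or 3 or CshRNA 1 or 2 (adjusted p = 0.0552 to 0.14). In the endoplasmic reticulum, 5 rose and 0 fell of 11 in SUM149 (median 0.17). Those that rose included SDF2L1, at 12.6 CPM with MUC1shRNA and 4.53 CPM with CshRNA (adjusted p = 1.5e-05), and the lectin chaperone CALR, by 0.61 (adjusted p = 7.0e-06). In BT-549, 1 rose and 4 fell (median -0.13). HYOU1, a large HSP70 relative, fell by 0.23 and the collagen chaperone SERPINH1 by 0.28 on the log2 scale (adjusted p = 0.00757 and 0.00999), and the call of SERPINH1 was lost without MUC1shRNA 1 or 3 (adjusted p = 0.0552 and 0.052).

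**Figure D4:**
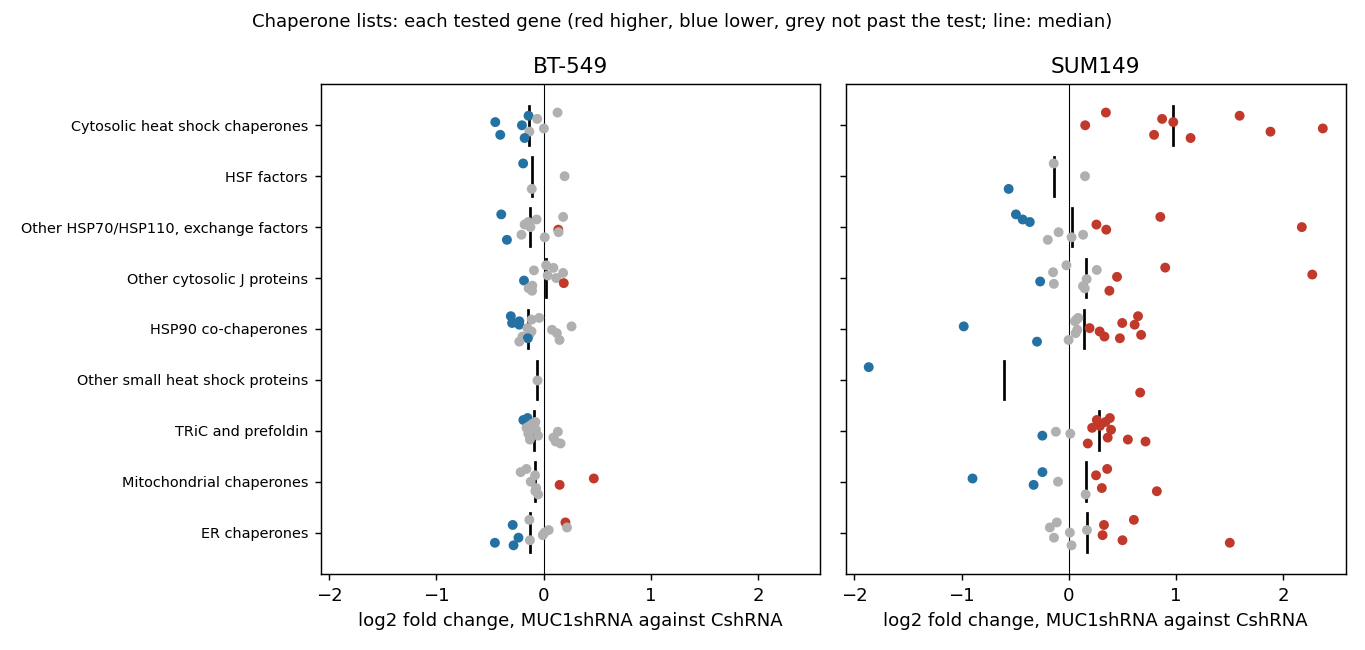
Each point is a tested gene of 9 chaperone lists, placed by its log2 fold change between MUC1shRNA and CshRNA on the horizontal axis, with BT-549 on the left and SUM149 on the right. Red points were higher and blue points lower past edgeR's test, grey points did not pass it, and the black line is the median of the list, 0.97 for the cytosolic heat shock chaperones in SUM149 and -0.14 in BT-549.

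Across the 12 libraries, the gene outside the members whose log2 CPM ran most like that of a member was, by Pearson correlation among 12091 genes, FEN1 for HSPA8 (0.9979), CCNE2 for HSPH1 (0.9983) and DNAJA1 (0.9974), TUBA1C for DNAJB1 (0.9968), DHX9 for HSP90AA1 (0.9901), EDEM2 for BAG3 (0.9985), LARS2 for HSPA1A (0.9833) and TUT7 for HSP90AB1 (0.9455). None of them was in the chaperone lists. The points share a line and an arm within each of 4 groups.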

How the data were processed

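Per the labels' protocols, RNA came from Trizol extraction and was sequenced after TruSeq Stranded mRNA preparation. The deposited values are raw read counts per Ensembl gene, made by the authors without normalization. Per the submitters' processing notes, the build was GRCh38.p7 and the tools included STAR 2.7.0, DESeq2 1.24.0 and CASAVA 1.8.2. Which program counted reads, with what strand rule and gene models, is not stated in the labels or the notes. Gene names, positions and exon lengths were taken from GENCODE release 29 on GRCh38. Promoter windows were taken from RefSeq on GRCh38.p14.

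From the counts, the libraries of each line were fitted separately (edgeR 4.0.16, R 4.3.3, TMM, filterByExpr, quasi-likelihood test, Benjamini-Hochberg adjustment over all tested genes, threshold 0.05). The difference between the lines' responses and the control comparison came from a fit of all 12 libraries. The 45 pseudoautosomal copies on chromosome Y were left out. CPM used TMM-scaled totals, and TPM used the exon union length. Depth, 7931614 to 24140623 counts per library, limits the precision of HSPA1A most. The fits were also run on simulated counts with planted changes, drawn with the spread that edgeR estimated from these data. No library was made to stand apart there, so the simulation does not bear on outlying libraries. Named were all members and MUC1, the 2 genes with the smallest adjusted p of each other list and line, HSF1 and HSF2, and for each member its most alike gene by correlation of log2(CPM + 1), of which 1 is not reported here. Marker genes outside that rule are named as values. The members, lists and tests were chosen with earlier results of these data known. Alternatives were other scalings and filters, DESeq2 1.42.0, limma-voom (limma 3.58.1), thinned counts, 1 fit for all libraries, a replicate block, HSPA1A and HSPA1B summed, and each library left out.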

Additional observations from a re-analysis of the deposited data

Results flagged for a closer look

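The response to MUC1 silencing differed between the lines, by edgeR's interaction test over 12 libraries, for 8 of the 9 tested chaperones. The log2 response in BT-549 minus that in SUM149 was -2.35 for HSPA1A, -1.99 for HSPA8, -1.72 for DNAJA1, -1.41 for HSP90AA1, -1.29 for HSPH1, -1.18 for HSPB1, -0.91 for DNAJB1 and -0.34 for HSP90AB1. The same test called 39.6% of all genes. All 8 stayed past the test without SUM149 CshRNA 3.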

How the results depend on the processing

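In SUM149, 7 to 9 members were higher under all 16 alternatives, where 3411 to 4064 of all genes were called higher. In the interaction 7 to 9 members were lower under all 21, where 2738 to 3307 of all genes were called lower. The BT-549 count of 5 members lower was less firm: 2 with all 12 libraries in one fit (HSP90AA1 and HSP90AB1), 3 with the replicate block (those and HSPB1), 4 with DESeq2 or without a filter, and 2 to 4 on leaving out each library (2716 to 4470 genes called in all). BAG3 made 1 member higher in BT-549 with a filter of 5 CPM in 3 libraries, and without CshRNA 3 and MUC1shRNA 2 together, an alternative chosen after seeing the data. HSP90AB1 made 1 member lower in BT-549 against SUM149 controls under upper-quartile scaling, which moved the median of all genes to -0.20, and under the 5 CPM filter. It reversed to 0.0255 without a filter and ran from -0.0873 to 0.0053 on leaving out each library, highest without BT-549 CshRNA 2. HSPA1A in BT-549, uncalled throughout, reversed to -0.0126 (upper quartile), -0.0056 (limma-voom), -0.0192 (thinned) and -0.0004 (replicate block), and ran from -0.0762 to 0.149 over the leave-one-out fits. Left out each in turn, libraries moved uncalled HSPB11 in BT-549 from -0.1102 to 0.0189, and the interactions of HSF1 from -0.0989 to 0.0308 and of HSF2 from -0.0071 to 0.1284. Without a filter, the SUM149 median of all genes was -0.20. The title numbers gave no sign of pairing: same-numbered deviations correlated at 0.153, -0.352 and -0.293 in BT-549 and -0.041, 0.038 and 0.097 in SUM149. The highest in BT-549 was 0.450, between MUC1shRNA 2 and CshRNA 3, the libraries that stood apart. With 3 libraries per group, these values do not settle whether samples were paired. The replicate block called 2951 genes in BT-549 and 7934 in SUM149, and 9 members higher there. Summing HSPA1A and HSPA1B could change no call, since HSPA1B was at 0 in all 12 libraries. That alternative repeated the main fit and does not bear on the shared sequence. HSPA1A, at 14 to 81 counts, is limited by depth, and was not tested under the 5 CPM filter.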
